A study of Homo sapiens with 12 samples.

Results

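RNA of A375 cells treated with XL413, an inhibitor of the kinase CDC7, was set against RNA of A375 cells treated with the solvent DMSO. Of the 12 libraries of the series, 6 were taken by their treatment labels, 3 with XL413 (1 µM, 24 h) and 3 with DMSO (24 h). These 6 were fitted on their own across every gene kept by a filter on low counts. By their replicate numbers the libraries are called X1, X2 and X3 with XL413 and D1, D2 and D3 with DMSO. The other 6 libraries, 3 with GSK343 (an inhibitor of the histone methyltransferase EZH2, 1 µM) plus XL413 (1 µM) and 3 with GSK343 alone, all for 24 h, were used only to read the XL413 effect again in separate libraries. A375 is an established human melanoma line with a mutated BRAF gene, and the labels name no further genetic change in any group. XL413 was given at 1 dose for 1 time, and how far it inhibited CDC7 was not measured in these files. The series text calls the replicates biological without saying what was separate between them, so that the p-values measure the spread between these libraries.

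CDC7 is a serine/threonine kinase that is active when bound to its regulatory subunit DBF4 or DBF4B. In S phase it phosphorylates subunits of the MCM helicase that has been loaded at origins of DNA replication, which lets the helicase be activated and the origin fire. A cell with less CDC7 activity fires fewer origins, and genes of S phase, of the passage from G2 into mitosis and of the replication checkpoint are transcribed at set points of the cell cycle. In a mixed culture their RNA therefore also follows how many cells stand at each point.

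The 6 libraries held 31553205 to 35777606 expected counts (estimated reads per gene, in which reads that match several genes are divided between them), with 18239 to 18400 genes counted at all. Along the first principal component, which held 47.5% of the variance, the XL413 libraries lay at 4.06, 7.31 and 4.87 and the DMSO libraries at −5.77, −5.94 and −4.53. Genes of melanoma identity summed to 3823 to 3929 CPM (counts scaled to a common library total) with XL413 and to 3870 to 3982 CPM with DMSO. Most of this sum was VIM alone, at 2847 to 2911 CPM with XL413 and 2810 to 2885 CPM with DMSO. SOX10 was at 332 to 370 CPM with XL413 and 322 to 358 CPM with DMSO, and S100A4 was also well expressed. TYR was at 0, and MLANA, PMEL and DCT stayed at or near 0 in all 6 libraries. The markers of other cells summed to 649.8 to 675 CPM with XL413 and 657 to 684 CPM with DMSO for 10 epithelial genes, almost all of it KRT18 and KRT8 with EPCAM and CDH1 near 0. They summed to 243 to 289.7 CPM with XL413 and 221 to 282 CPM with DMSO for 10 fibroblast genes, to 53.1 to 54.04 CPM with XL413 and 49.98 to 53.01 CPM with DMSO for 13 leukocyte genes (mostly CD68, with MS4A1 at 0), and to 9.38 to 9.77 CPM with XL413 and 8.21 to 9.08 CPM with DMSO for 6 endothelial genes.

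XL413 changed many genes by small amounts. Of 14995 tested genes, 680 were called higher and 714 lower at an adjusted p under 0.05 in edgeR's quasi-likelihood test, 9.3% of the genes tested (4.53% higher and 4.76% lower), and 3693 had an unadjusted p under 0.05. The median fold of the called genes was 1.14 among those that rose and 1.12 among those that fell. Past 1.5-fold there were 34 rises and 7 falls, and past 2-fold 9 rises and 3 falls. With upper quartile scaling the split was 851 higher and 567 lower. All 3 XL413 libraries lay beyond all 3 DMSO libraries for 627 of the 680 rises and 710 of the 714 falls, against 28.2% of all tested genes (13.3% with XL413 above and 15.0% with XL413 below). The calls were made on these same libraries, so that this separation follows largely from the calling, here and for the single called genes below. In what follows, "rose" and "fell" are used of called genes, log2 fold changes are given ± SE, and the median over all tested genes, against which the medians of gene lists are to be read, was −3.6e-05. None of the 1394 log2 fold changes changed sign under the alternatives tried, but the number of calls depended on single libraries: it was 354 without D2, 513 without X2, 591 without X3 and 923 without D3. Of the 1394 calls, 306 (143 higher and 163 lower) were made in all 6 fits that left out 1 library. The gene lists below were chosen with earlier results of these data known, so that a high share called is no independent result.

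**Figure D1:**
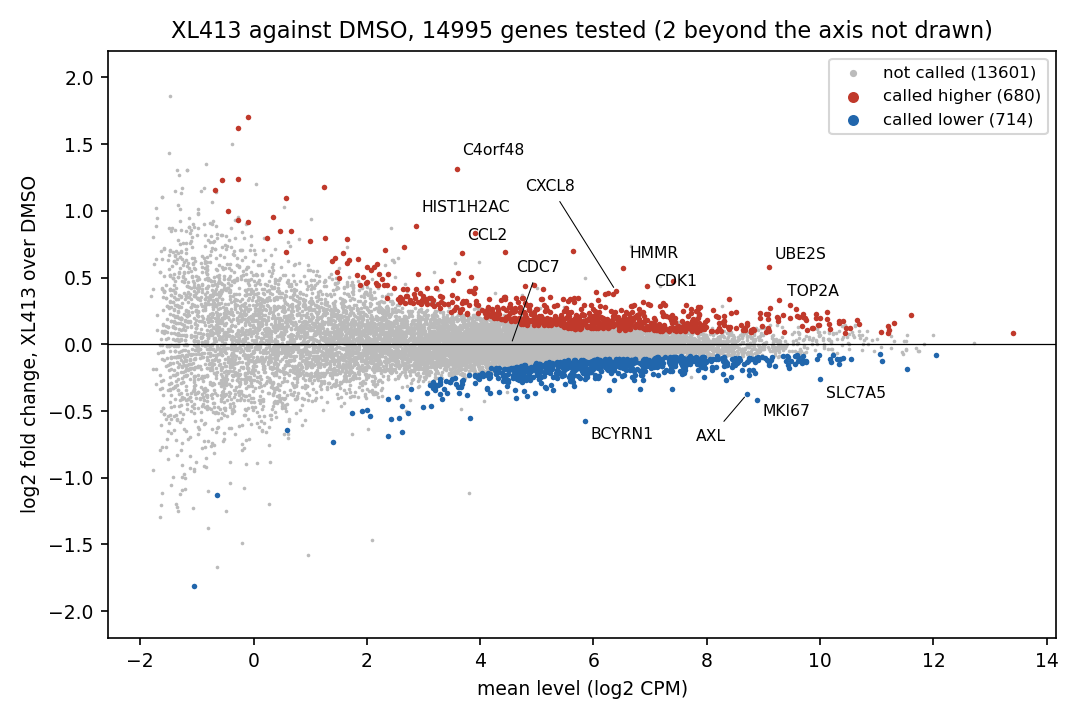
Log2 fold change (vertical axis, XL413 over DMSO) against the mean level in log2 CPM (horizontal axis) for the 14995 tested genes, with the 680 called higher in red, the 714 called lower in blue and the rest in grey. Called genes lie close to the line of no change at high levels, and CDC7 lies on it.

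Among called genes of at least 2 log2 CPM whose groups did not overlap, the largest rise was that of C4orf48, a gene for a small secreted protein, at 18.4, 21.8 and 11.2 CPM in the XL413 libraries and 5.76, 4.85 and 9.96 CPM in the DMSO libraries (1.32 ± 0.236). The groups were separate, but the lowest XL413 and the highest DMSO library lay close together. After it came HIST1H2AC, TMEM160, LRRC17, C17orf89, HIST1H2BK, CCL2, ITGA9, UBE2S and TENM1, with log2 fold changes between 0.89 and 0.58. Of these calls, TMEM160 was lost without D2, X2 or X3 (adjusted p up to 0.145), C17orf89 without D2 (0.0575), and ITGA9 and TENM1 without D1, X2 or X3 (up to 0.09 and 0.0822). The largest fall was that of GAGE12F, a cancer-testis antigen gene with near-identical copies between which reads are divided by estimate, at 3.34, 5.4 and 5.52 CPM with XL413 and 7.86, 6.43 and 8.16 CPM with DMSO (−0.66 ± 0.158, lost without D3, adjusted p = 0.0517). BCYRN1, a small noncoding RNA of neurons and tumour cells, was at 41.9, 48.2 and 48.6 CPM with XL413 and 77.5, 63.8 and 64.7 CPM with DMSO (−0.57 ± 0.0695), with the 2 groups well apart. ADAMTS6, a secreted metalloproteinase gene, fell by 0.55 ± 0.0812, the noncoding RNA LINC01446 by 0.55 ± 0.101 and ST8SIA4, a polysialyltransferase gene, by 0.47 ± 0.0865. FDXACB1, GATSL2, NSFP1, SLITRK4 and ADM5 completed the 10 largest falls (log2 fold changes −0.56 to −0.47), with the calls of FDXACB1, NSFP1, SLITRK4 and ADM5 lost without X2 (adjusted p up to 0.0896 over the fits without 1 library). The first 3 of those 4 were also lost without D2 or X3, and SLITRK4 without D1.

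Transcript length moved with the comparison. Across 14565 genes with an annotated length (that of the longest basic transcript), log2 fold changes fell with length (Spearman's rho −0.20, with genes sharing the libraries; 0.022 for GC content). The deviation of each library from the mean of the 6 had a rho with length of 0.12, −0.48 and −0.19 in XL413 replicates 1, 2 and 3, and of −0.0018, 0.32 and 0.31 in DMSO replicates 1, 2 and 3. Genes that rose had a median length of 2323 nt and genes that fell 4553 nt, against 3336 nt for all tested genes. In the shortest of 5 equal bins of length 259 genes rose and 55 fell, and in the longest 58 rose and 255 fell. After a correction of each library for GC content and length, the same bins held 160 rises and 202 falls, and 175 and 177, and the totals were 846 higher (5.81% of 14565) and 902 lower (6.19%), with 1166 of the 1394 calls kept. The part of length in the results below was not tested further. Counts after this correction are given beside many of the lists.

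**Figure D2:**
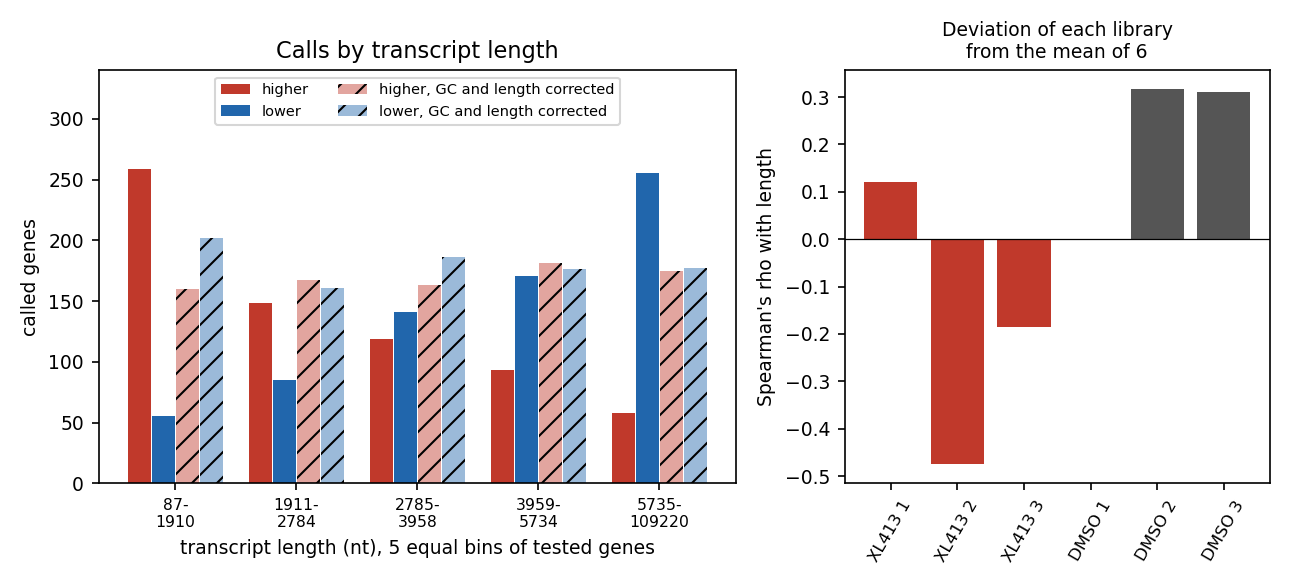
Left, number of genes called higher (red) and lower (blue) in 5 equal bins of transcript length in nt, before (solid) and after (hatched) the correction for GC content and length; the bin of short genes holds 259 rises and 55 falls before it and 160 and 202 after it. Right, Spearman's rho between transcript length and each library's deviation from the mean of the 6 libraries, XL413 in red and DMSO in grey.

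CDC7 itself was not called, at 22.4, 24.5 and 22.7 CPM in the XL413 libraries and 24.5, 22.7 and 22.6 CPM in the DMSO libraries (−0.0046 ± 0.0539, adjusted p = 0.971), and the groups overlapped. Its regulatory subunits were not called either: DBF4 averaged 51.8 ± 2.59 CPM with XL413 and 48.3 ± 0.434 CPM with DMSO, and DBF4B averaged 21.3 ± 0.600 CPM with XL413 and 22.7 ± 0.636 CPM with DMSO (SD, n = 3 each). Among the helicase subunits that are the kinase's substrates, MCM3 was at 215, 221 and 220.1 CPM with XL413 and 181, 179 and 176 CPM with DMSO, a rise of 0.29 ± 0.0269 (adjusted p = 4.54e-05). Every XL413 library was above every DMSO library for MCM3, as for most genes that rose, and this call was kept in all fits without 1 library. MCM4 rose by 0.11 ± 0.0246 and MCM7 by 0.094 ± 0.0237, with neither call made without D2 (adjusted p up to 0.0619 and 0.112; MCM7 also without D3, X2 or X3). MCM2, MCM5 and MCM6, with log2 fold changes of 0.04, 0.092 and 0.0047, were not called, although after the correction for GC content and length MCM2 and MCM5 were (0.066 and 0.11, adjusted p = 0.0355 and 0.0173). So 3 of the 9 genes of the kinase, its partners and the helicase rose and 0 fell (33.3% called, against 9.3% of all genes). The 3 rises became 5 after the correction and 1 without D2. Of 24 other origin licensing and firing factors 1 rose, GINS2 of the GINS complex (0.16 ± 0.0373, lost without D2 or X2, adjusted p up to 0.105), and 0 fell (2 rises and 0 falls after the correction). The 1 call before the correction was 4.17% of that list, against 9.3% of all genes.

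Among 38 genes of the replication fork and of nucleotide supply, 11 rose and 2 fell (median log2 fold change 0.044). Called were 34.2% of this list and 22.7% of the G1/S list below, against 9.3% of all genes. DUT, whose product keeps uracil out of DNA, rose by 0.29 ± 0.0422 to 159 ± 6.91 CPM with XL413, against 129.9 ± 7.49 CPM with DMSO, and this call was kept in every fit without 1 library. RPA3, the small subunit of the factor that coats single-stranded DNA, rose by 0.22 ± 0.0452 and TYMS, the thymidylate synthase, by 0.14 ± 0.0298, while RRM2, the regulated subunit of ribonucleotide reductase, fell by 0.11 ± 0.0251. The last 3 calls were lost without D2 or X2, and RPA3 also without X3 (adjusted p up to 0.0772). The 11 rises became 1 without D2, 3 without D3 and 4 without X2 or X3, and the 2 falls became 0 without D2 or X2 and 1 without D3 or X3. Among 22 genes of G1/S cyclins, E2F and RB, CCND1, the cyclin D1 gene, fell by 0.16 ± 0.0236 with levels of 558, 549.6 and 556 CPM in XL413 libraries and 616, 624 and 620.3 CPM in DMSO libraries. The difference was small and the groups did not overlap, as for most called genes. CCNE2, a cyclin E gene, fell by 0.18 ± 0.0410 and CDK6, named after its value was seen, by 0.14 ± 0.0405, while RBL1 and RB1, the genes of the pocket proteins p107 and pRB, rose by 0.20 ± 0.0385 and 0.17 ± 0.0458. Those 4 calls were lost without D2 (adjusted p up to 0.0625, 0.166, 0.0537 and 0.146 over the fits without 1 library), and the 3 falls of this list became 1 without D2, D3, X2 or X3. Its 2 rises became 0 without D2 and 1 without D1, X1 or X3.

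Many genes of mitosis carry near their start a short element with the letters TTTGAA or TTCGAA (the cell cycle genes homology region, or CHR), through which the DREAM complex and B-MYB with FOXM1 act. The promoters of HMMR, CDK1 and MKI67 are shown because they belong to the mitotic genes with the smallest p, and because HMMR and CDK1 rose while MKI67 fell. They are RefSeq sequences on GRCh38.p14, 250 bases before to 50 bases after the annotated start, written 5′ to 3′ on the gene's strand (chr5:163460382-163460681 on the plus strand, chr10:60778081-60778380 on the plus strand, and chr10:128126374-128126673 on the minus strand), with matches to TTTGAA or TTCGAA on either strand, which may overlap each other, in capitals.
HMMR: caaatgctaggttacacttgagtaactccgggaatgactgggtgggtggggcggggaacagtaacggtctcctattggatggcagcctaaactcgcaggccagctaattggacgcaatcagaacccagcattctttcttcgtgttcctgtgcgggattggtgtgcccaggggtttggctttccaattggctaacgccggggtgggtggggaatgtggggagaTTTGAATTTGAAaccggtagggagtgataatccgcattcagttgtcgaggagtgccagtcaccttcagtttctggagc
CDK1: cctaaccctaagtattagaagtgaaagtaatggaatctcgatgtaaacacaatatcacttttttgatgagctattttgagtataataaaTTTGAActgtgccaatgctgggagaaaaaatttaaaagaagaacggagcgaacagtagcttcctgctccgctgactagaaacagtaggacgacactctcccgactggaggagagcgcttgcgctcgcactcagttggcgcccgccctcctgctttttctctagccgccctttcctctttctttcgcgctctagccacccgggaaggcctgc
MKI67: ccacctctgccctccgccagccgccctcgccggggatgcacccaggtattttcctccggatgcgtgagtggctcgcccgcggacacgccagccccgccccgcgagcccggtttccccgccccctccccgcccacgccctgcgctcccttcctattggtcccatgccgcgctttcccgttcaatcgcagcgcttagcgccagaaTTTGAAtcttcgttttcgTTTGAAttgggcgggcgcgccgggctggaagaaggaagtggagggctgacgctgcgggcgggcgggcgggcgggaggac
The matches began 28 and 22 bases before the start of HMMR, 161 bases before that of CDK1, and 47 and 29 bases before that of MKI67. Such a match was present in 61 of the 109 promoters found for genes of the 5 mitotic lists described next (56.0%), in 16.6% of all 27305 promoters and in 11.4% of the 10996 promoters of tested genes. It was present in 12.9% of 520 promoters of genes that rose and in 9.89% of 566 promoters of genes that fell. A match is a description of the letters, and no binding was measured here.

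The spindle gene HMMR, whose product binds hyaluronan and spindle microtubules, had the smallest p of all genes (chromosome 5, 163460203 to 163491945 on GRCh38). It was at 109, 109 and 113 CPM in XL413 libraries and 73.0, 75.2 and 74.8 CPM in DMSO libraries, a rise of 0.57 ± 0.0323 (adjusted p = 8.24e-07). The groups averaged 110.3 ± 2.54 CPM with XL413 and 74.3 ± 1.2 CPM with DMSO, a difference far larger than either SD. CDK1, the main kinase of mitosis (chromosome 10, 60778331 to 60794852), was at 135, 143 and 145 CPM with XL413 and 103, 104 and 105 CPM with DMSO (a rise of 0.44 ± 0.0336). UBE2C, which starts ubiquitin chains for the anaphase-promoting complex, was at 190.2, 209 and 189 CPM with XL413 and 146, 139 and 139 CPM with DMSO (a rise of 0.47 ± 0.0384). UBE2S, the E2 that extends its ubiquitin chains, was at 677, 725 and 569.7 CPM with XL413 and 394, 421 and 503 CPM with DMSO (a rise of 0.58 ± 0.0824). HMMR and these 3 genes were taken by a rule that required groups without overlap, so that their separation is no further result. For UBE2S, X3 and D3 stood nearer to each other. In RNA of whole cultures, a larger share of cells in a phase and more RNA per cell of that phase cannot be told apart.

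Of 24 mitotic entry kinases, cyclins and phosphatases, 7 rose and 1 fell. After CDK1 the smallest p values belonged to CCNB2, a B-type cyclin (a rise of 0.29 ± 0.0331), AURKA, the centrosomal kinase Aurora A (0.22 ± 0.0252, 252 ± 0.563 CPM with XL413 and 216 ± 1.03 CPM with DMSO), and NEK2, a centrosome-separating kinase (0.19 ± 0.0333). The 1 fall was that of CCNF, named after its value was seen (−0.19 ± 0.0390, lost without X3, adjusted p = 0.0524). Of 22 genes of the anaphase-promoting complex, its E2s and substrates, 4 rose and 0 fell: UBE2S, UBE2C, PTTG1, the securin gene (0.31 ± 0.0379), and CDC20, an activator of the complex (0.12 ± 0.0248, lost without D2, adjusted p = 0.0593). Called were 33.3% and 18.2% of these lists, against 9.3% of all genes. Both lists moved in a part of their members, and their medians (0.0067 and 0.0073) stayed near that of all genes.

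Of 41 genes of the kinetochore, the centromere and the spindle checkpoint, 8 rose and 4 fell, 29.3% of the list against 9.3% of all genes. CENPH, a constitutive centromere protein gene, rose by 0.29 ± 0.0370, and BIRC5, the gene of survivin in the chromosomal passenger complex, by 0.21 ± 0.0295. CENPE, the gene of a kinetochore kinesin, fell to 54.0 ± 2.30 CPM with XL413, against 63.5 ± 2.14 CPM with DMSO (−0.23 ± 0.0397), and CENPF, the gene of another long kinetochore protein, fell by 0.19 ± 0.0310. CENPE and CENPF have transcripts of 8612 and 10307 nt, and after the correction for GC content and length their log2 fold changes were −0.19 and −0.15. Of 29 spindle and cytokinesis genes, 9 rose and 2 fell (12 and 1 after that correction), 37.9% of the list before the correction against 9.3% of all genes. Beside HMMR, KIF4A, a chromosome-bound kinesin, rose by 0.30 ± 0.0319, PRC1, which bundles the microtubules of the midzone, by 0.21 ± 0.0286, and CKAP2L, a spindle protein, by 0.23 ± 0.0375. The 4 falls of the kinetochore list became 2 without D2, X2 or X3, and its 8 rises became 5 in every fit without 1 library other than that without X1. The 9 rises of the spindle list became 5 without D2 and 6 without X3, and its 2 falls became 0 without D2, D3, X2 or X3 and 1 without D1.

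MKI67, the gene of the proliferation antigen Ki-67 that coats mitotic chromosomes (chromosome 10, 128096659 to 128126385), and TOP2A, the gene of the DNA topoisomerase of condensing chromosomes, changed in opposite directions. MKI67 was at 424, 394 and 400.0 CPM in XL413 libraries and 526, 551 and 552 CPM in DMSO libraries, a fall of 0.42 ± 0.0315 (adjusted p = 1.49e-05). TOP2A was at 699, 664 and 705 CPM in XL413 libraries and 547, 545 and 556 CPM in DMSO libraries, a rise of 0.33 ± 0.0276 (adjusted p = 2.46e-05). Neither gene's groups overlapped, which follows largely from the calling. Both calls were kept in every fit without 1 library. Both transcripts are long (12678 and 5758 nt), with corrected log2 fold changes of −0.37 and 0.35. Of the condensin genes of this list of 10, NCAPD2 rose by 0.14 ± 0.0278 and NCAPH2 fell by 0.13 ± 0.0341, the second lost without any DMSO library or X2 or X3 (adjusted p up to 0.102), and 6 genes were not called (3 rises and 3 falls after the correction). Called before the correction were 40.0% of this list, against 9.3% of all genes. Of 36 centrosome scaffold and CEP genes, 1 rose and 3 fell (2 and 2 after the correction), 11.1% of the list against 9.3% of all genes: AKAP9, a scaffold of the centrosome and Golgi, by 0.25 ± 0.0471, CEP290 by 0.18 ± 0.0410 and CEP250, a linker of centrioles, by 0.15 ± 0.0383, while STIL, a centriole assembly gene, rose by 0.12 ± 0.0346. The call of AKAP9 alone was kept in every fit without 1 library (adjusted p up to 0.0879, 0.131 and 0.184 for the others), and the 3 falls became 1 without D2 or X2 and 2 without D1 or X3.

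**Figure D3:**
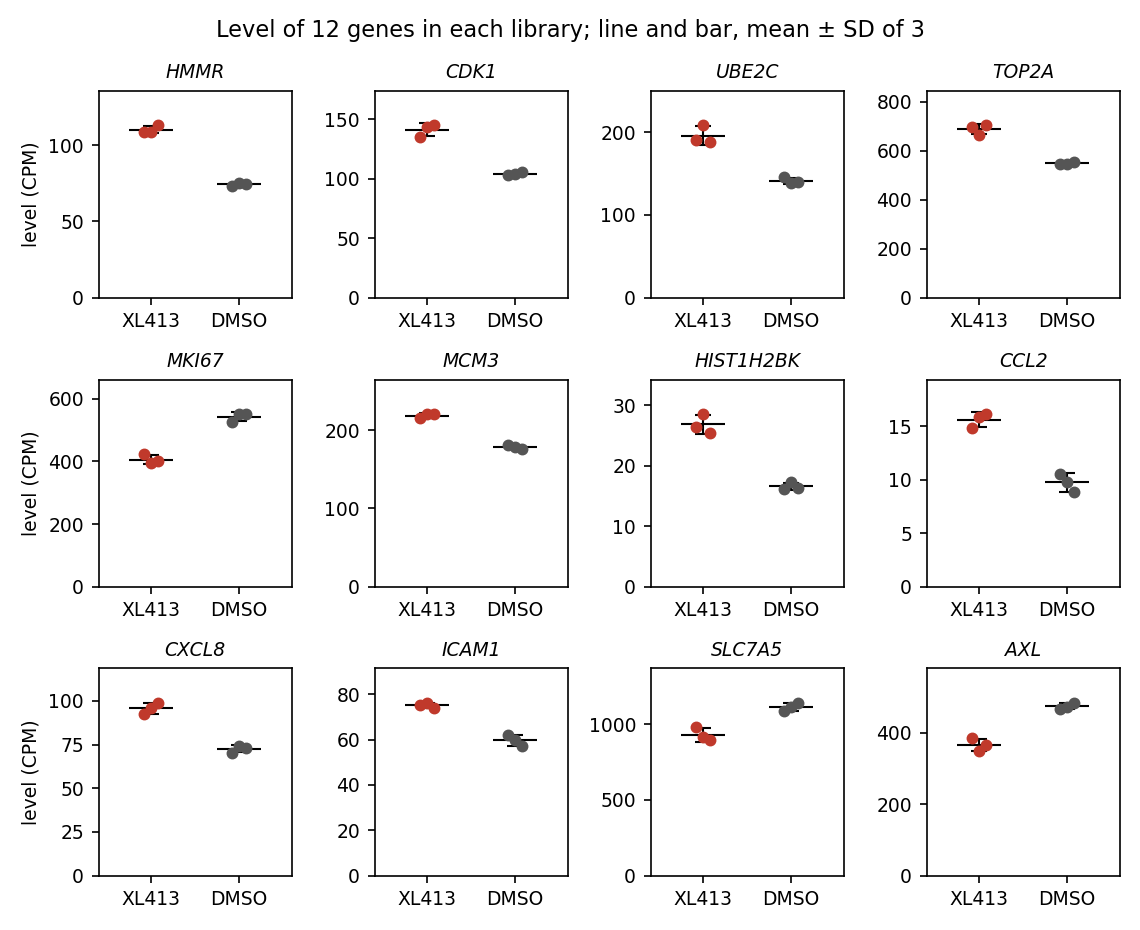
Level in CPM (vertical axis, from 0) of 12 genes in each library, XL413 in red on the left and DMSO in grey on the right of each panel, with the mean and SD of 3 libraries. The 2 groups do not overlap for any of the 12, with MKI67, SLC7A5 and AXL lower and the other 9 higher with XL413. All 12 are called genes, picked after the test on these same libraries.

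Histone genes gave some of the largest rises. Of 69 clustered histone genes with a row, 26 passed the filter; most replication-dependent histone mRNA has no poly-A tail and is not captured in a poly-A library. Of the 26, 5 rose and 0 fell, 19.2% of the list against 9.3% of all genes. HIST1H2AC, an H2A gene, was at 9.15, 9.40 and 9.67 CPM with XL413 and 5.46, 5.26 and 4.52 CPM with DMSO (0.89 ± 0.0950, chromosome 6, 26124145 to 26139116). HIST1H2BK, an H2B gene, was at 26.5, 28.6 and 25.4 CPM with XL413 and 16.2, 17.2 and 16.3 CPM with DMSO (0.69 ± 0.0568), and HIST1H2BD, another H2B gene, at 3.89, 3.97 and 3.78 CPM with XL413 and 2.52, 2.35 and 1.85 CPM with DMSO (0.79 ± 0.144). The groups did not overlap for any of the 3, as for most called genes. HIST3H2A rose by 0.53 ± 0.0844 and HIST1H2BJ, named after its value was seen and at only 1.08 ± 0.245 CPM with XL413 and 0.457 ± 0.0795 CPM with DMSO, by 1.24 ± 0.284 (lost without D2, X2 or X3, adjusted p up to 0.0905). Histone transcripts are short (median 574 nt), and after the correction for GC content and length 5 again rose and 0 fell, with a median log2 fold change of 0.12 in place of 0.22. DESeq2 called 2 of them. It gave no adjusted p for HIST1H2AC and HIST1H2BD, which were counted as not called. The clustered histone genes are close paralogs, so that their values depend on how reads were divided. H1F0, a linker histone gene outside the clusters that is made independently of replication, fell to 314 ± 2.83 CPM with XL413, against 372 ± 5.29 CPM with DMSO (−0.25 ± 0.0254).

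The DNA damage checkpoint, homologous recombination and Fanconi genes gave 5 rises and 1 fall of 44, 13.6% of the list against 9.3% of all genes. ATRIP, the partner of the checkpoint kinase ATR, rose by 0.23 ± 0.0448. CHEK2, a checkpoint kinase gene, rose by 0.30 ± 0.0693, FANCD2 and BLM, named after their values were seen, by 0.14 ± 0.0350 and 0.14 ± 0.0415, and SLX4, a nuclease scaffold gene, fell by 0.24 ± 0.0573. Those last 4 calls were lost without D2 or X3 (adjusted p up to 0.142 over the fits without 1 library), and the 5 rises became 2 without D2, D3 or X3 and 3 without X2. Of 30 p53 target genes 2 rose, CCNG1 (0.12 ± 0.0310) and TP53I3 (0.15 ± 0.0415), and 0 fell, 6.67% of the list against 9.3% of all genes. Neither call was made without D1, D2 or X3, and 1 of them was made in each other fit without 1 library. Of 8 CDK inhibitor genes CDKN3, whose product removes an activating phosphate from CDK2, rose by 0.25 ± 0.0427, and 0 fell, 12.5% of the list against 9.3% of all genes. Of 17 BCL-2 family genes 0 were called by edgeR, DESeq2 or limma-voom, and 3 had an unadjusted p under 0.05. With RLE or upper quartile scaling, no filter, the stricter filter, the correction for GC content and length, or without X1, 1 was called higher. MCL1 averaged 459.5 ± 2.35 CPM with XL413 and 454 ± 17.4 CPM with DMSO.

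Chemokine and cytokine genes are switched on by NF-kB, dimers of the RELA and NFKB families that bind a short element in the promoter. The promoters of CXCL8 and CXCL1 are shown because both genes rose and both hold such an element. Their matches follow from this choice and are no result. The promoter of TNFSF9, a cytokine gene that also rose, held 0 matches in this window, and those of CCL2 and LIF were not analysed here. The printed promoters are RefSeq sequences on GRCh38.p14 with the same window, both on the plus strand (chr4:73740319-73740618 and chr4:73869143-73869442). Letters that match the NF-kB consensus on either strand are in capitals.
CXCL8: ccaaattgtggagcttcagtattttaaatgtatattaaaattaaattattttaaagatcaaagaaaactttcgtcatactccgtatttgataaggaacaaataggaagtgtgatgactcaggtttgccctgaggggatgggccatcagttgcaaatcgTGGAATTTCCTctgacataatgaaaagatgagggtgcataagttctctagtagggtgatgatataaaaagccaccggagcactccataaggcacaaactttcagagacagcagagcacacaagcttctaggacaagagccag
CXCL1: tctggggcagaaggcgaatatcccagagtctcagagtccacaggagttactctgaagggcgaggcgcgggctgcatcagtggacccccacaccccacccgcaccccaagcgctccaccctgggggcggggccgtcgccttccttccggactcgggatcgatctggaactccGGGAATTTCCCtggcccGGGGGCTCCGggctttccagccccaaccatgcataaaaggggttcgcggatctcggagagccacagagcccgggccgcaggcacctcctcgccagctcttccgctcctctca
The first matches began 92 bases before the start of CXCL8 and 79 bases before that of CXCL1. A match was present in 9 of 21 promoters found for the chemokine and cytokine lists (42.9%), against 16.9% of all 27305 promoters, 20.1% of those of tested genes, 22.3% of those of genes that rose and 20.3% of those of genes that fell. No NF-kB binding was measured here.

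Of 14 tested chemokine genes 3 rose and 0 fell, 21.4% of the list against 9.3% of all genes. Each of the 3 calls was kept in every fit without 1 library. CCL2, which draws monocytes, was at 14.8, 15.9 and 16.1 CPM with XL413 and 10.6, 9.81 and 8.85 CPM with DMSO (0.68 ± 0.0755, chromosome 17, 34255218 to 34257203). CXCL8, the gene of interleukin 8, was at 92.4, 95.9 and 98.8 CPM with XL413 and 70.2, 74.0 and 73.3 CPM with DMSO (0.40 ± 0.0360), and CXCL1, another neutrophil chemokine, at 84.4, 88.8 and 87.9 CPM with XL413 and 67.6, 66.8 and 65.7 CPM with DMSO (0.38 ± 0.0336). The XL413 libraries were higher than every DMSO library for all 3, as for most genes that rose. Of 17 interleukin and other cytokine genes 3 rose and 0 fell: IL1A, the gene of interleukin 1 alpha (0.41 ± 0.107), TNFSF9, the ligand of 4-1BB (0.24 ± 0.0576), and LIF, a cytokine of the interleukin 6 family (0.20 ± 0.0374). These 3 calls were lost without D2 (adjusted p up to 0.11, 0.089 and 0.0577), and 1 was left without X2, X3 or D1. Of 21 NF-kB subunits and feedback targets 7 rose and 0 fell, with a median of 0.071. Called were 33.3% of this list and 17.6% of the interleukin and cytokine list, against 9.3% of all genes. ICAM1, an adhesion molecule for leukocytes, was at 75.2, 76.1 and 74.0 CPM with XL413 and 61.9, 59.8 and 57.2 CPM with DMSO (0.33 ± 0.0362). NFKBIA, the inhibitor that NF-kB itself induces, rose by 0.27 ± 0.0441, NFKBIZ, a nuclear member of that family, by 0.31 ± 0.0547 and NFKB2, a subunit gene, by 0.20 ± 0.0310. All 4 calls were kept in every fit without 1 library. For comparison, 2 of 50 interferon-stimulated genes rose (TRIM34 by 1.10 ± 0.227 and ISG20 by 0.15 ± 0.0420), 4.0% of that list against 4.53% of all genes, with 0 without X2 and 1 without X3, D2 or D3. Of 19 MHC class I genes 1 rose, B2M, the light chain (0.23 ± 0.0421), and 0 fell, 5.26% of the list against 9.3% of all genes (2 and 1 after the correction). Of the leukocyte markers 3 were tested. CD68, which gives most of their summed level, was at 43.4 ± 0.771 CPM with XL413 and 43.1 ± 1.73 CPM with DMSO and was not called (0.0089 ± 0.0398). LYZ rose by 0.32 ± 0.0939 and LAPTM5 by 0.80 ± 0.189 at 3.0 ± 0.452 CPM with XL413 and 1.72 ± 0.410 CPM with DMSO, both lost without D2 or X2 (adjusted p up to 0.157 and 0.104; 1 of the 3 markers was called after the correction). PTPRC, the marker common to leukocytes, was below the filter, at most at 0.0875 CPM in XL413 libraries and 0.0299 CPM in DMSO libraries. The part of such cells in these rises was not tested.

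In the lists of proteases, collagens and BMP or TGF-beta targets that follow, every called gene rose. Outside them the secreted metalloproteinase gene ADAMTS6 fell, as given above. Of 22 metalloproteinases, TIMPs and plasminogen activation genes, 6 rose and 0 fell (median 0.16). The share called was 27.3% here, 15.4% of collagens and 16.7% of ID, BMP or TGF-beta genes, against 9.3% of all genes. MMP1, the interstitial collagenase, was at 15.5, 16.7 and 16.4 CPM with XL413 and 12.2, 11.7 and 13.0 CPM with DMSO (0.40 ± 0.0654), MMP2, a gelatinase, rose by 0.25 ± 0.0347, SERPINE2, an inhibitor of thrombin and plasminogen activators, by 0.16 ± 0.0264 and PLAT, the tissue plasminogen activator, by 0.16 ± 0.0330. The groups did not overlap in any of the 4, as for most called genes, and these 4 calls were kept in every fit without 1 library. PLAU, the urokinase gene (0.52 ± 0.144), and the low MMP13 (0.92 ± 0.247), both named after their values were seen, were lost without D2, D3, X2 or X3 (adjusted p up to 0.166 and 0.136). Of 26 collagen genes 4 rose and 0 fell, and 8 and 0 after the correction for GC content and length. Their transcripts had a median length of 6454 nt. COL27A1, a fibrillar collagen of cartilage, rose by 0.25 ± 0.0332. Its call alone was kept in every fit without 1 library. The others were COL13A1 (0.19 ± 0.0443), COL16A1 (0.24 ± 0.0650) and COL4A1 (0.094 ± 0.0275). The 4 rises became 1 without X2, D2 or D3 and 2 without X3. Of 24 ID genes and BMP or TGF-beta targets 4 rose and 0 fell: TGFBI, a secreted matrix protein induced by TGF-beta (0.28 ± 0.0337, kept in every such fit), ATOH8 (0.56 ± 0.125), ID1, a BMP target that blocks helix-loop-helix factors (0.29 ± 0.0608), and LTBP2 (0.20 ± 0.0540). Of these 4, 1 was left without X2 and 2 without D2.

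Of 30 genes of ATF4, the transcription factor of the integrated stress response, and its targets, 13 fell and 1 rose (13 and 2 after the correction for GC content and length), 46.7% of the list against 9.3% of all genes, and 27 of the 30 had a log2 fold change below 0 (median −0.12). SLC7A5, the transporter of large neutral amino acids, was at 980.1, 914 and 893 CPM in XL413 libraries and 1088, 1114 and 1139 CPM in DMSO libraries, a fall of 0.26 ± 0.0325 (adjusted p = 0.000549). SLC3A2, the heavy chain with which it pairs, was at 421, 428 and 413 CPM with XL413 and 489.9, 476 and 477 CPM with DMSO, a fall of 0.19 ± 0.0260. For both genes every XL413 library lay below every DMSO library, as for most genes that fell. SHMT2, the mitochondrial serine hydroxymethyltransferase, fell by 0.15 ± 0.0266. ATF4 itself fell to 313 ± 4.32 CPM with XL413, against 344 ± 7.47 CPM with DMSO (−0.14 ± 0.0269), and ASNS, the asparagine synthetase, PSAT1 of serine synthesis and DDIT4, an inhibitor of mTORC1, fell by 0.16 ± 0.0295, 0.14 ± 0.0259 and 0.17 ± 0.0305 (these 4 named after their values were seen). CEBPB, a partner of ATF4 that many other signals induce, was the 1 rise (0.30 ± 0.0527). Of the 13 falls 8 were kept in every fit without 1 library, and the number was 8 without D2. CHAC1, DDIT3, ATF3 and SESN2, stress-induced genes of the same list also named after their values were seen, were not called (log2 fold changes −0.39 ± 0.146, −0.071 ± 0.0764, −0.024 ± 0.0841 and −0.0071 ± 0.0560).

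Of 23 amino acid transporter genes 8 fell and 0 rose, before and after the correction. Called before it were 34.8% of the list, against 9.3% of all genes. The 2 lists share genes, among them SLC7A5, SLC3A2 and SLC7A11, the cystine transporter (−0.26 ± 0.0505), which was also the 1 called gene of 25 NRF2 targets (4.0% of that list against 9.3% of all genes). Outside the ATF4 list, SLC6A6, the taurine transporter, fell by 0.21 ± 0.0396 and SLC38A1, a glutamine transporter, by 0.17 ± 0.0282. The 8 falls became 5 without D2, X2 or X3. Of 20 aminoacyl-tRNA synthetase genes 3 fell, VARS (−0.18 ± 0.0286), MARS (−0.13 ± 0.0247) and GARS (−0.091 ± 0.0261), and 1 rose, QARS (0.12 ± 0.0263). The last 2 were lost without D2, X2 or X3 (adjusted p up to 0.179 and 0.0856). The 3 falls became 2 in each fit without 1 library and 7 after the correction. The calls before it were 20.0% of this list, against 9.3% of all genes. Of 25 heat shock chaperone genes 3 fell and 0 rose (6 and 0 after the correction), 12% of the list against 9.3% of all genes called and 4.76% called lower: HSPA1A (−0.22 ± 0.0379) and HSPA1B (−0.23 ± 0.0410), near-identical genes of HSP70 between which reads are divided by estimate, and HSPA9, the mitochondrial HSP70 (−0.09 ± 0.0241, lost without D2, D3, X2 or X3, adjusted p up to 0.176). Of 21 endoplasmic reticulum chaperone genes 1 rose, CRELD2 (0.19 ± 0.0520, lost without any library other than D3), and 0 fell, 4.76% of the list against 9.3% of all genes (2 and 2 after the correction).

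**Figure D4:**
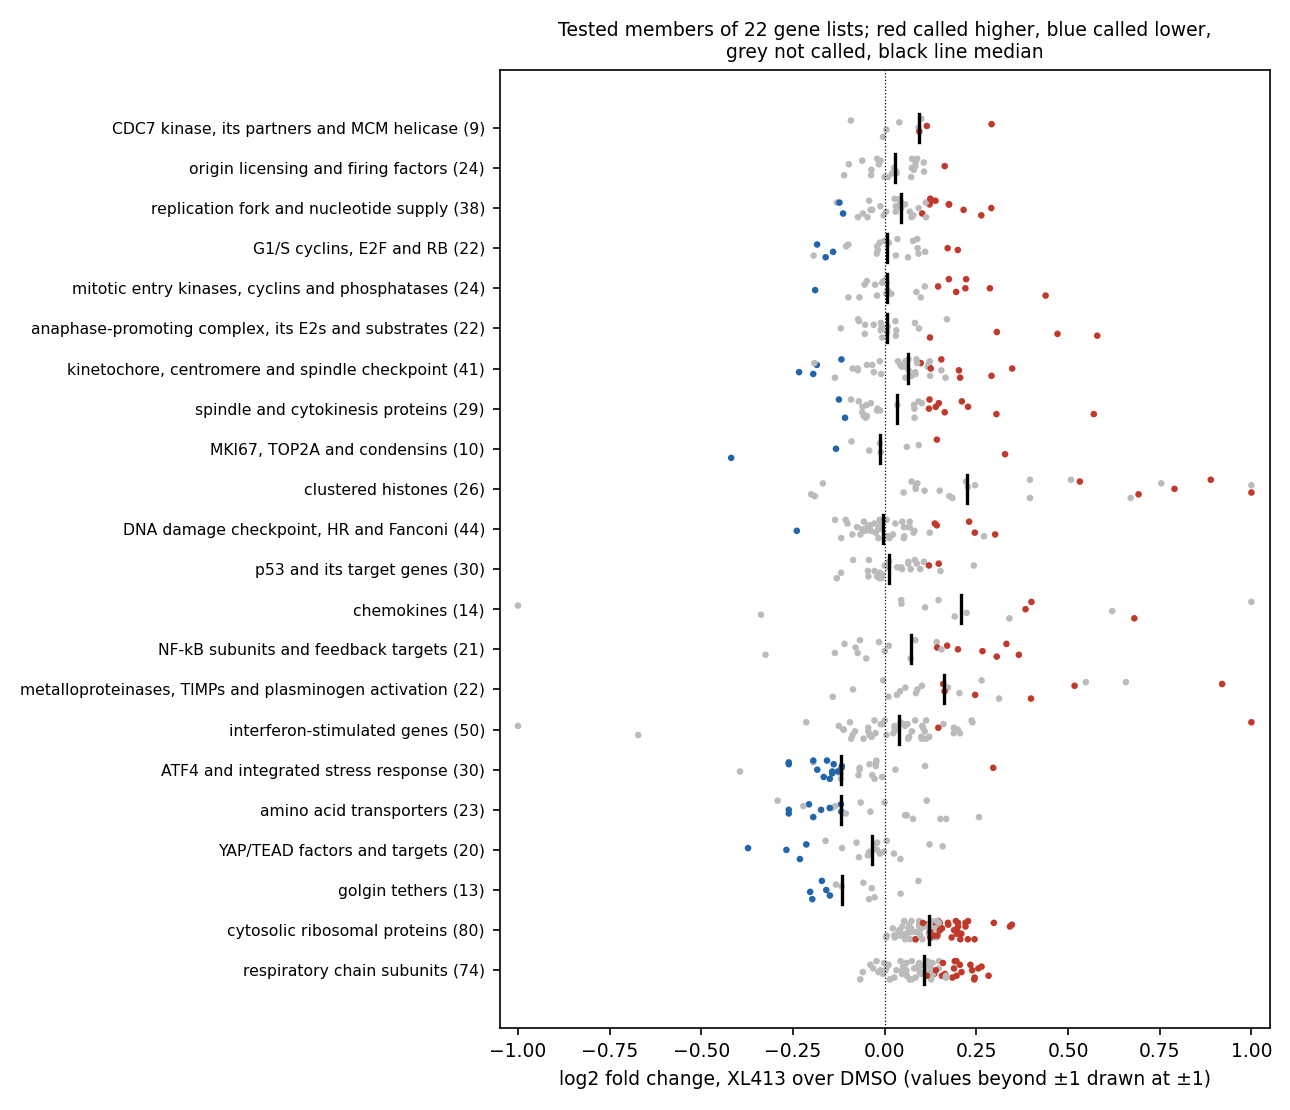
Log2 fold change (horizontal axis, XL413 over DMSO) of each tested member of 22 gene lists, with the number of members in parentheses, called rises in red, called falls in blue, the rest in grey and the median as a black line; values beyond ±1 are drawn at the edge. Most members of the cell cycle lists lie near 0 with a few rises, the medians of ATF4 targets and amino acid transporters lie at −0.12, and every ribosomal protein gene lies above 0.

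Genes of melanoma state changed in both directions. AXL is a receptor tyrosine kinase high in undifferentiated melanoma and a YAP target (chromosome 19, 41219203 to 41261766). It was at 384, 349 and 364 CPM in XL413 libraries and 467, 471 and 483 CPM in DMSO libraries. This was a fall of 0.37 ± 0.0330 (adjusted p = 3.37e-05), with a lack of overlap that follows largely from the calling. Of 26 genes of the undifferentiated state 3 fell and 2 rose (3 and 4 after the correction): besides AXL, SOX9 (−0.30 ± 0.0862) and ZEB2 (−0.19 ± 0.0529) fell, and TGFBI and LOXL2 (0.10 ± 0.0279) rose. The calls of SOX9, ZEB2 and LOXL2 were lost without D2, D3, X1, X2 or X3 (adjusted p up to 0.192, 0.154 and 0.155). Of 14 melanocyte lineage genes, of 21 listed, 1 fell (7.14%, against 9.3% of all genes): MITF, the lineage factor, to 38.0 ± 1.47 CPM with XL413, against 43.4 ± 0.847 CPM with DMSO (−0.19 ± 0.0403, lost without D2 or X2, adjusted p up to 0.0541). Of 20 YAP/TEAD factors and targets 4 fell and 0 rose, each kept in every fit without 1 library: AXL, CRIM1, a BMP-binding membrane protein (−0.27 ± 0.0361), AJUBA, a LIM protein that inhibits the LATS kinases (−0.23 ± 0.0335), and AMOTL2, a feedback inhibitor of YAP (−0.21 ± 0.0282). The other 16 genes were not called. Called were 20.0% of this list and 19.2% of the list of the undifferentiated state, against 9.3% of all genes. Outside these lists, FST and SNAPC1 were among the 5 falls with the smallest p: FST, whose product binds activins, averaged 68.1 ± 1.74 CPM with XL413 and 86.3 ± 1.03 CPM with DMSO (−0.34 ± 0.0332), and SNAPC1, a subunit of the complex that drives small nuclear RNA genes, averaged 99.6 ± 1.26 CPM with XL413 and 126 ± 1.66 CPM with DMSO (−0.33 ± 0.0296).

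Of 26 genes that report the MAPK pathway, which BRAF drives, 4 fell and 3 rose: MYC (−0.26 ± 0.0567), CCND1, DUSP7 (−0.17 ± 0.0416) and DUSP4 (−0.11 ± 0.0256) fell, and LIF, IER3 (0.17 ± 0.0324) and DUSP6 (0.11 ± 0.0281) rose, the DUSP genes named after their values were seen. These 7 calls were 26.9% of the list, against 9.3% of all genes. Of the 7, CCND1 alone was kept in every fit without 1 library. The 3 rises became 0 and the 4 falls 2 without D2, and 2 and 1 without X3. Of 30 hypoxia and glycolysis genes 2 fell, HK2, a hexokinase gene (−0.23 ± 0.0293, kept in every such fit), and ENO1 (−0.083 ± 0.0213), and 0 rose, 6.67% of the list against 9.3% of all genes (4 and 0 after the correction). There was 1 fall left without X3 or any DMSO library. In lipid synthesis 4 of 25 cholesterol genes fell and 0 rose (CYP51A1 −0.23 ± 0.0392, SQLE −0.15 ± 0.0383, SCAP −0.15 ± 0.0339 and DHCR7 −0.15 ± 0.0399), and 1 fall was left without D2, X2 or X3. Of 18 fatty acid genes 2 rose, ACSS2, an acetyl-CoA synthetase (0.35 ± 0.0474), and FADS3 (0.24 ± 0.0432), both kept in every such fit. There were 3 falls, among them FASN, the fatty acid synthase (−0.14 ± 0.0368), and 0 were left without X2 or X3 and 1 without D2 or D3. Of 36 lysosome and autophagy genes 6 rose and 1 fell, led by CTSZ, a cathepsin (0.26 ± 0.0424), and NPC2, a cholesterol carrier (0.19 ± 0.0352), the 2 that were kept in every such fit. Its 6 rises became 2 without D2 and 3 without X3. Called were 16.0% of the cholesterol, 27.8% of the fatty acid and 19.4% of the lysosome and autophagy genes, against 9.3% of all genes. Of 12 genes of Polycomb repressive complex 2 edgeR, DESeq2 and limma-voom each called 0, and 3 had an unadjusted p under 0.05. After the correction for GC content and length 3 were called higher there, among them RBBP4, a histone-binding subunit (0.082, adjusted p = 0.0339), and 1 was with upper quartile scaling, no filter or the stricter filter. Of 34 proteasome genes 1 rose and 2 fell (0 and 4 after the correction), 8.82% of the list against 9.3% of all genes, with PSMD11 (−0.15 ± 0.0260) the 1 kept in every fit. Of 16 tubulin genes TUBA1A rose (0.33 ± 0.0409) and 0 fell, 6.25% of the list against 9.3% of all genes (3 and 2 after the correction).

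Of 80 cytosolic ribosomal protein genes 35 rose and 0 fell, 43.8% of the list against 9.3% of all genes, and all 80 had a log2 fold change above 0. The median was 0.12 with a median length of 1128 nt. After the correction for GC content and length 31 rose and 1 fell, with a median of 0.059. Of 74 nuclear-encoded respiratory chain subunit genes 22 rose and 0 fell (median 0.11, median length 1260 nt), 29.7% of the list. After the correction 14 rose and 1 fell (median 0.046). RPL39, a protein of the large subunit's exit tunnel, was at 696, 835 and 817 CPM with XL413 and 673, 611 and 626 CPM with DMSO (0.30 ± 0.0545), so that X1 lay just above the highest DMSO library. It was the 1 gene of both lists whose call was kept in every fit without 1 library. The 35 ribosomal rises became 1 without D2, 4 without X2, 5 without X3 and 17 without D3, and 60 without X1 and 55 without D1. The 22 respiratory rises became 0, 1, 3, 12, 38 and 31 in the same fits. Of 13 golgin tether genes, whose transcripts have a median of 6849 nt, 5 fell and 0 rose (5 and 1 after the correction, median −0.12 before it and −0.097 after it): GOLGA4 (−0.20 ± 0.0352), BICD2 (−0.17 ± 0.0314), GOLGA3 (−0.16 ± 0.0317), GOLGB1 (−0.15 ± 0.0380) and TRIP11, named after its value was seen (−0.20 ± 0.0520). The first 2 were kept in every fit without 1 library, 2 were left without D2 and 3 without D3, X2 or X3. The 5 falls were 38.5% of the golgin list, against 9.3% of all genes.

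The XL413 effect was read a second time in libraries that share none with the comparison above, GSK343 plus XL413 against GSK343. By itself that comparison gave 0 calls among 15157 genes in edgeR's test (0.0%), with 1809 genes at an unadjusted p under 0.05, while DESeq2 called 47 higher and 28 lower and limma-voom 0. GSK343+XL413 replicate 2 had a deviation with a rho of −0.71 with transcript length, against 0.11 and 0.30 in the other 2 libraries of its group and 0.067, 0.32 and 0.67 in the GSK343 libraries. Without it 28 genes were called higher and 23 lower (0.333%). Of the 1393 genes called for XL413 against DMSO that could be read there, 1346 had the same sign (96.6%, against 70.4% of all 14895 genes tested in both), 647 of 680 rises and 699 of 713 falls. Their median log2 fold changes were 0.19 for genes that rose and −0.16 for genes that fell, against 0.19 and −0.16 for XL413 over DMSO. Without GSK343+XL413 replicate 2 the same sign was found for 1363 of 1394, with medians of 0.15 and −0.12, and all 47 of the genes called in both had it. After the correction for GC content and length it was found for 93.8% of 1383, against 70.0% of all genes.

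Log2 fold changes read there are given without GSK343+XL413 replicate 2, with those that include that library in parentheses. They were 0.56 (0.53) for HMMR, 0.44 (0.47) for CDK1, 0.49 (0.57) for UBE2C, 0.34 (0.24) for TOP2A and −0.39 (−0.64) for MKI67, against 0.57, 0.44, 0.47, 0.33 and −0.42 for XL413 over DMSO. They were 0.80 (0.85) for HIST1H2AC, 0.53 (0.62) for CCL2, 0.20 (0.26) for CXCL8, 0.13 (0.089) for ICAM1, 0.28 (0.25) for MCM3, −0.33 (−0.33) for AXL and −0.17 (−0.24) for SLC7A5, against 0.89, 0.68, 0.40, 0.33, 0.29, −0.37 and −0.26. Other genes that rose with XL413 over DMSO stood near or below 0 there: −0.23 (−0.33) for TRIM34, −0.11 (−0.041) for IL1A, 0.037 (0.047) for NFKBIZ and 0.037 (−0.025) for CKAP2L, against 1.10, 0.41, 0.31 and 0.23. The median of the 14 chemokine genes was −0.026 (−0.01), against 0.21. Some long coiled-coil genes had a lower log2 fold change there. CENPE was at −0.67 (−0.82 with that library), AKAP9 at −0.69 (−0.88) and GOLGA4 at −0.55 (−0.64), against −0.23, −0.25 and −0.20 for XL413 over DMSO. GSK343 replicate 3, whose deviation had a rho of 0.67 with transcript length, was kept in both readings. The part of length in these values was not tested. A test of the difference between the 2 effects over all 12 libraries called 0 of 15443 genes (413 at an unadjusted p under 0.05), while DESeq2 called 2 and limma-voom 0.

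**Figure D5:**
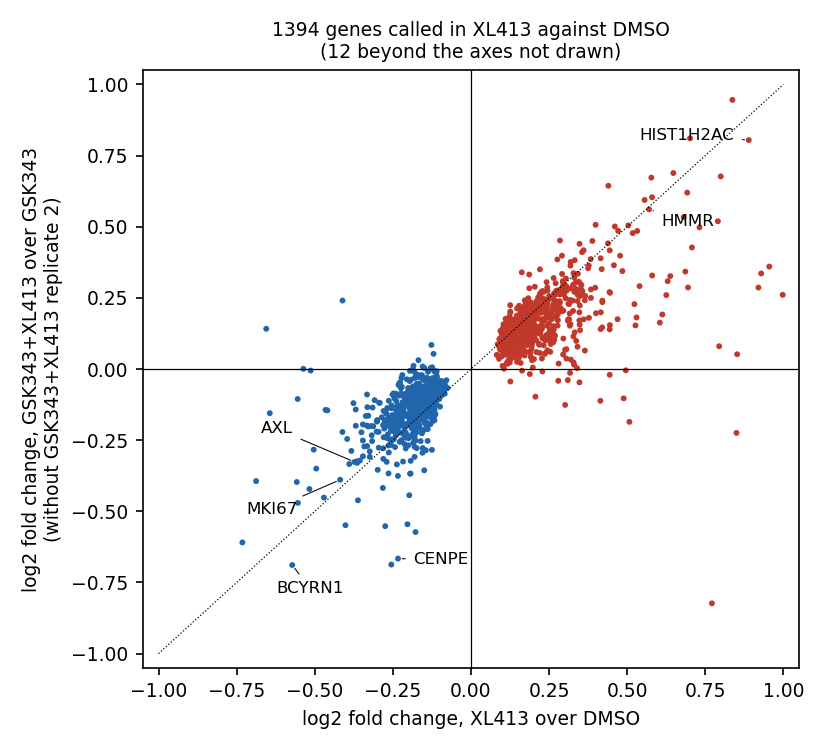
Log2 fold change of the 1394 genes called for XL413 over DMSO (horizontal axis, red higher and blue lower) against their log2 fold change for GSK343+XL413 over GSK343 without GSK343+XL413 replicate 2 (vertical axis), with the line of equal values dotted. Of these genes 1363 have the same sign in both, and CENPE lies below the line.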

How the data were processed

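Poly-A RNA of A375 cells was sequenced from dUTP (strand-specific) libraries, per the labels' protocols. The authors deposited expected counts, estimated reads per gene with Bowtie2 2.1.0, RSEM 1.2.15 and hg38 named in the submitters' processing notes. The sources used here give neither the gene annotation nor the strand setting of the counting. Each column was assigned by its label, and 0 columns were left over.

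After rounding, the deposited expected counts were fitted with edgeR 4.0.16 (R 4.3.3), for the 6 libraries of the comparison alone. Genes were kept by filterByExpr (minimum count 10, minimum total 15), libraries were scaled by TMM, and a quasi-likelihood model with 4 residual degrees of freedom was tested two-sided with Benjamini-Hochberg adjustment over all 14995 genes. Genes with an adjusted p under 0.05 are called. SE is |log2 fold change| over the root of F, and levels are CPM on the effective library size. On simulated counts for this comparison, 67.7% of 93 genes changed by 0.5 (log2) and 87.9% of 107 changed by 1 were recovered, with 9 false calls among 14883 genes run. These counts were drawn without any trend with length or GC content, so that they do not give the false calls of the real libraries.

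Lengths, GC content and positions came from GENCODE 29 (GRCh38), with 23872 genes matched by name, 710 through another symbol and 1893 unmatched; the spline correction used 5 degrees of freedom per library. Names that look like dates (28) were kept and are not discussed. Replicates differed by more than counting noise. The gene lists, the members and the tests were chosen with earlier results of these data known. Named are the 10 largest rises and falls at 2 log2 CPM or more with separate groups (leaving out LOC, antisense and readthrough names), the 5 of each with the smallest p under the same conditions, CDC7, its partners and MCM2 to MCM7, and up to 4 called members of each list by p (or the 2 of highest level where none was called). Alternatives were RLE and upper quartile scaling, no or a stricter filter (5 CPM in 3 libraries), DESeq2 1.42.0, limma-voom (limma 3.58.1), all 12 libraries in 1 fit, the replicate number as a block, the GC and length correction with and without that block, at least 1.5-fold, and leaving out each library. Single results for some genes are not reported here.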

Additional observations from a re-analysis of the deposited data

How the results depend on the processing

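The 680 rises and 714 falls became 43 and 23 when all 12 libraries shared 1 estimate of the spread, 34 and 7 when at least 1.5-fold was required, and 169 to 745 and 185 to 781 when 1 library was left out, the lowest without DMSO replicate 2. Same-numbered XL413 and DMSO libraries did not deviate together (r of −0.30, −0.13 and −0.24 for numbers 1, 2 and 3), with r of −0.0011 to 0.23 between different numbers. The trends of single libraries with length and GC content enter these values. They therefore cannot show whether same-numbered libraries were prepared together. With the replicate number as a block 190 genes were higher and 215 lower, and with the block and the GC and length correction 414 and 491. GSK343+XL413 against GSK343 gave 0 calls, but 11 higher and 8 lower with no filter, 47 and 28 with DESeq2, 100 and 52 in the fit of 12 libraries, 5 and 2 with the replicate block, 37 and 17 with the GC and length correction, 22 and 10 with both, and 0 to 28 and 0 to 23 when 1 library was left out. The share of called genes with the same sign there was 96.6%, and 97.5% with DESeq2, 98.5% in the fit of 12 libraries, 97.8% with the replicate block, 94.7% with the GC and length correction, 87.5% at 1.5-fold or more, and 93.3% to 97.8% when 1 library was left out. The test of the difference between both effects called 0 genes, 2 with DESeq2, and 1 with the GC and length correction, with or without the replicate block. The cause of these differences was not tested. Of 151 called genes named here, RLE scaling kept 151, limma-voom 149, upper quartile scaling 146, the correction 145, DESeq2 123, the replicate block 94 and the fit of 12 libraries 36, with 0 reversed. Genes to which DESeq2 gave no adjusted p, among them HIST1H2AC and LRRC17, were counted as not kept. Counts limit what could be seen: genes under the filter were not tested, and in simulated counts 67.7% of changes of 0.5 (log2) were recovered.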

Other observations

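Called genes that stand in no list and outside the rule for naming were ranked by p after their values were seen, and genes among the 14 with the smallest p are described here; each of the 14 calls was kept in every fit that left out 1 library. Among those that rose, KPNA2, an importin that carries proteins into the nucleus, averaged 582 ± 8.55 CPM with XL413 and 498 ± 8.43 CPM with DMSO (0.23 ± 0.0253), and DEPDC1, a gene expressed in dividing cells, averaged 111 ± 1.41 CPM with XL413 and 91.0 ± 2.14 CPM with DMSO (0.28 ± 0.0314). ARL6IP1, which shapes the tubular endoplasmic reticulum, rose by 0.23 ± 0.0266, and ERRFI1, a feedback inhibitor of the EGF receptor, by 0.28 ± 0.0324. C3, the central complement gene, averaged 59.3 ± 2.0 CPM with XL413 and 46.6 ± 2.05 CPM with DMSO (0.35 ± 0.0406). LGALS1, the gene of the lectin galectin-1, rose by 0.27 ± 0.0324, the cadherin gene CDH13 by 0.30 ± 0.0364 and SPOCK1, a secreted proteoglycan gene, by 0.35 ± 0.0436.

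Among those that fell, ACTB, the beta-actin gene, averaged 2774 ± 39.5 CPM with XL413 and 3159.8 ± 30.3 CPM with DMSO (−0.19 ± 0.0214). Each XL413 library lay below each DMSO library, as for most genes that fell. ESM1, a secreted proteoglycan gene of endothelium and tumour cells, averaged 44.9 ± 0.152 CPM with XL413 and 55.8 ± 1.01 CPM with DMSO (−0.31 ± 0.0340). SECISBP2, which is needed to read the codon for selenocysteine, fell by 0.35 ± 0.0401, the keratin gene KRT80 by 0.22 ± 0.0261 and C17orf51 by 0.30 ± 0.0380.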
